A study of Sus scrofa with 4 samples.

Results

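Families of enzymes add or remove methyl groups on histones or remove acetyl groups from them, and some of their members act on other substrates. The enzymes described here were taken from such families by name. They are the 60 genes, of 25880 in the count table, that lie on autosomes and whose pig symbol is KDM, KMT, SETD, PRMT, HDAC, SIRT, NSD or EHMT followed by a number, or is SUV39H2, SETDB1, SETDB2 or DOT1L. The rule used names and positions only and no expression value, but it was set with earlier results of these data known. Of the same families, 6 genes on the sex chromosomes and 2 genes on unplaced scaffolds, EHMT1 and PRMT2, were not members, and KMT2D was not analysed here. All 1522 genes on unplaced scaffolds had 0 counts in every library, so a 0 there says nothing about expression.

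Lysine methylation on histone H3 can mark active genes (H3K4, H3K36, H3K79) or silent ones (H3K9, H3K27), and separate families of enzymes write and erase each mark. Histone deacetylases (HDACs) and the NAD-dependent sirtuins take acetyl groups off histones and many other proteins, and class I HDACs work in repressor complexes of the nucleus. In reprogramming of somatic cells, H3K9 methylation is known as a barrier and several of these enzymes are known to alter how readily cells convert.

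RNA was sequenced from cultures of 1 post-neonatal pig: ear skin fibroblasts at passage 1 (n = 1), induced neural stem cell-like cells at passage 1 (iNSLCs, n = 1) and 2 clones of induced pluripotent stem cells at passage 3 (iPSCs, n = 2). The iNSLCs grew as dome-shaped colonies in NSM, a medium for naive-type pluripotent cells, after transfection of the EP-B set of episomal vectors. That set carries human versions of OCT4, SOX2, KLF4, L-MYC and LIN28, as well as KLF2, NANOG, GLIS1 and KDM4D, and the mouse p53 mutant mp53DD, so an H3K9 demethylase was itself among the introduced genes. The pig KDM4D gene was not analysed here. The iPSC clones were isolated after iNSLCs had been moved to ESM, an embryonic stem cell medium, here with activin A, TGF-β1 and IWP2, which blocks WNT secretion. The clones were sequenced at an earlier passage than the one at which the study checked them for loss of the vectors. Cell state and medium changed together in every comparison, and passage changed with them between the iPSCs and the other groups, so these cannot be told apart. In bulk RNA, fewer cells of a type and less RNA per cell cannot be told apart either.

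Fibroblasts had 62421521 counts, iNSLCs 25784594, clone 1 had 21640374 and clone 2 had 41296933. Levels below are CPM (counts relative to library size) after TMM scaling, which takes most genes as unchanged between libraries. The test was edgeR's quasi-likelihood test over 15739 genes, and a gene was called at a Benjamini-Hochberg adjusted p below 0.05. Fold differences are ratios of mean CPM, and the log2 ratios given with a standard error (±) come from the fit, so the 2 can differ slightly where counts are low. Only the clones gave a spread (1 residual degree of freedom), the lone libraries were assumed to vary like them, and all cells came from 1 animal. For iNSLCs against fibroblasts, 1 library each, there is no p-value, and ratios carry a 95% exact conditional binomial interval that covers counting error only. Scaling by total counts instead would add 0.57 to every log2 ratio of iPSCs to fibroblasts and 0.58 to every log2 ratio of iNSLCs to fibroblasts. Calls of the enzymes for iPSCs against fibroblasts that depended on this are named with the gene.

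The labels were checked against markers. Of 8 fibroblast markers 7 were tested, and all 7 were called lower in iPSCs, and their summed level was 137598 CPM in fibroblasts, 52607 CPM in iNSLCs and 878 and 909 CPM in the clones. The 4 pluripotency markers tested, of 6 listed, summed to 0.648, 301, 879 and 836 CPM in the same order, with 0 counts of POU5F1 and NANOG in fibroblasts. In iNSLCs this sum was mostly LIN28A, at 202 CPM, with EPCAM at 58.1 CPM and POU5F1 at 40.5 CPM. NANOG was at 0.209 CPM (6 counts) in iNSLCs, against 52.4 and 40.9 CPM in the clones. The vectors carry human OCT4 (POU5F1), NANOG and LIN28, and the part of vector reads in these values was not tested. The 5 neural stem markers tested, of 8 listed, summed to 58.0, 610, 550 and 611 CPM, but PAX6 among them was at 14.6 CPM in iNSLCs and 21.5 CPM in fibroblasts (log2 ratio -0.56, or 0.018 with total counts). The iNSLC library thus kept a high level of fibroblast transcripts, and the part of this in the iNSLC values below was not tested. Of 14 proliferation genes 11 were tested, and 10 were called higher in iPSCs than in fibroblasts (median log2 ratio 2.16), and their part in the values below was not tested.

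All 60 enzymes passed the filter on low counts, 59 lay at 1 CPM or more in every library and 53 at 5 CPM or more. Compared with fibroblasts, 17 enzymes (28.3%) were called higher in iPSCs and 18 (30.0%) lower. Genes in general were called higher in 29.6% and lower in 27.5% of cases, so the enzymes were called about as often (58.3% against 57.1% in either direction). The median log2 ratio was 0.046 over the enzymes and 0.13 over all genes tested. At a size of at least 2-fold, 9 enzymes (15.0%) had a call of 2-fold or more upwards and 8 (13.3%) downwards, against 22.5% and 19.2% of all genes. With total-count scaling, 28 enzymes were called higher and 9 lower, against 44.9% and 16.8% of all genes, and the medians were 0.62 over the enzymes and 0.70 over all genes. Compared with iNSLCs, 4 enzymes (6.67%) were called higher in iPSCs and 11 (18.3%) lower, where 14.1% of all genes were called in each direction (25.0% of enzymes against 28.1% of genes in all). Of these, 2 calls were 2-fold or more upwards and 6 downwards, against 8.48% and 9.82% of all genes. The median log2 ratio there was -0.16 over the enzymes and -0.0012 over all genes. Between iNSLCs and fibroblasts, 10 enzymes (16.7%) were past 2-fold higher and 5 (8.33%) past 2-fold lower with 5 CPM or more in the higher library. The shares over all genes were 14.0% and 15.8%, or 29.8% together. With total counts 20 enzymes were past 2-fold higher and 2 lower, against 23.1% and 8.74% of all genes.

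**Figure D1:**
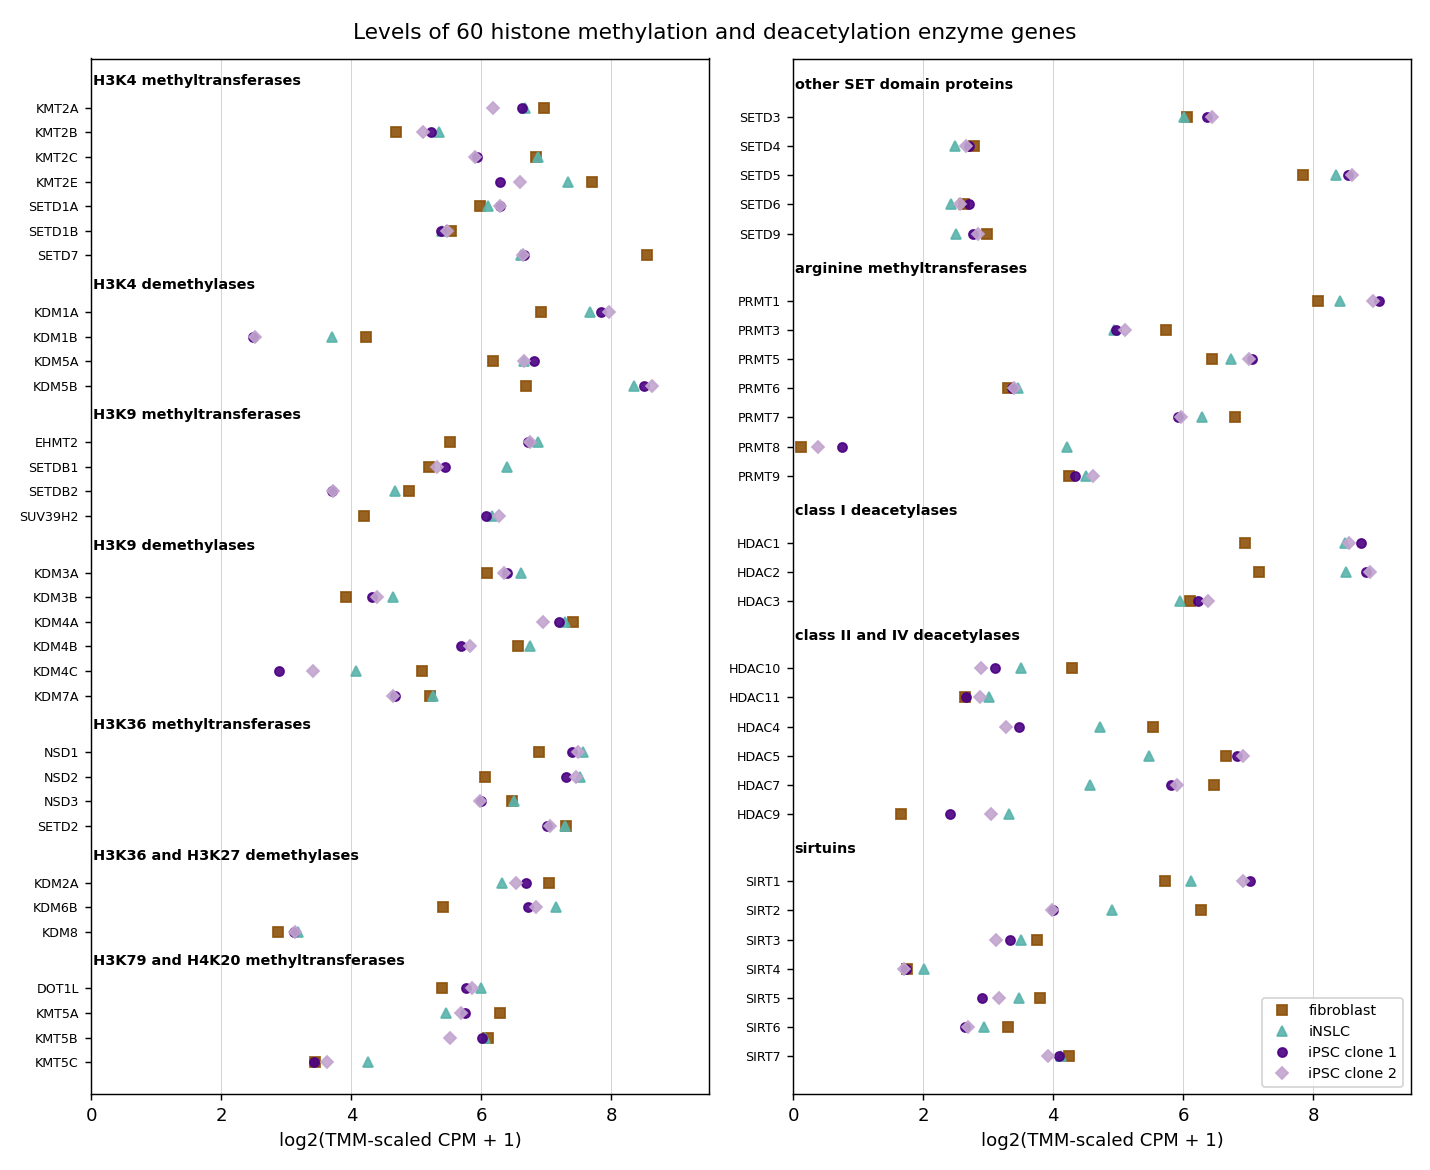
Levels of the 60 enzyme genes, grouped by role, as log2(TMM-scaled CPM + 1); each point is 1 library (fibroblast, iNSLC, iPSC clone 1 and iPSC clone 2). The clones lie close together for most genes, SETD7 and SIRT2 lie highest in fibroblasts (375 and 76.4 CPM), and PRMT8 stands apart in iNSLCs (17.5 CPM).

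The plot of levels by role shows that the clones mostly shared a level while the fibroblast library stood to either side of them. The roles below are taken in turn, from H3K4 to the sirtuins.

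The genes grouped here as H3K4 methyltransferases numbered 7, with KMT2E placed there by its family. Of these, 1 was called higher in iPSCs than in fibroblasts, 3 were called lower and 3 were not called. Their median log2 ratio was -0.55 with TMM and 0.019 with total counts, so the direction of the group as a whole turned with the scaling. SETD7 (ENSSSCG00000030396, chromosome 8, 87478520 to 87527189), which places a single methyl group on H3K4 and also modifies non-histone proteins, lay at 375 CPM in fibroblasts, 96.6 CPM in iNSLCs and 100 and 98.8 CPM in the iPSC clones. It was 3.77-fold (log2 ratio -1.91 ± 0.11, edgeR adjusted p = 0.000411) lower in iPSCs than in fibroblasts. The iNSLC library already lay near the iPSC level, 3.88-fold (95% interval 3.73 to 4.04) below fibroblasts. SETD7 was the highest H3K4 methyltransferase per length in fibroblasts, at 51.3, 13.2, 13.7 and 13.5 CPM per kb in fibroblasts, iNSLCs and clones 1 and 2.

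KMT2E (ENSSSCG00000029082, chromosome 9, 104911799 to 105041742), a SET domain protein of the MLL family that binds H3K4me3, lay at 208 CPM in fibroblasts, 160 CPM in iNSLCs and 76.9 and 95.3 CPM in the iPSC clones. The fibroblast and iNSLC libraries were both above the clones, and iPSCs were 2.42-fold (log2 ratio -1.27 ± 0.16, edgeR adjusted p = 0.00334) lower than fibroblasts and 1.85-fold (log2 ratio -0.89 ± 0.17, edgeR adjusted p = 0.0230) lower than iNSLCs. Of its exon length 34.2% is shared with SRPK2 on the opposite strand, so part of its counts is uncertain. KMT2C, which works at enhancers, was also lower in both clones than in the other libraries, with 114 CPM in fibroblasts, 117 CPM in iNSLCs and 59.9 and 59.1 CPM in the iPSC clones. It fell by 0.94 on the log2 scale against fibroblasts (edgeR adjusted p = 0.00266) and by 0.97 against iNSLCs (edgeR adjusted p = 0.00782). KMT2B, a promoter enzyme, was lowest in fibroblasts at 24.7 CPM in fibroblasts, 39.6 CPM in iNSLCs and 36.3 and 33.2 CPM in the iPSC clones. That call (log2 ratio 0.49 ± 0.15, edgeR adjusted p = 0.0443) was lost with DESeq2 (adjusted p = 0.165) and when only the libraries of these groups were fitted (adjusted p = 0.0609). With TMM, KMT2A, SETD1A and SETD1B were not called in either comparison, but SETD1A and SETD1B were called higher than fibroblasts with total counts (adjusted p = 0.00313 and 0.0401). KMT2A separated the clones, at 97.9 and 71.7 CPM.

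The 4 H3K4 demethylases changed in both directions: 3 were called higher in iPSCs than in fibroblasts and 1 was called lower, with both scalings. KDM5B (ENSSSCG00000010928, chromosome 10, 24739157 to 24831494), which removes the higher methylation states of H3K4, lay at 102 CPM in fibroblasts, 327 CPM in iNSLCs and 362 and 393 CPM in the iPSC clones. Fibroblasts stood alone at the low end: iPSCs were 3.70-fold (log2 ratio 1.89 ± 0.14, edgeR adjusted p = 0.000677) higher, iNSLCs were 3.20-fold (95% interval 3.09 to 3.32) higher, and iPSCs were not called against iNSLCs (edgeR adjusted p = 0.273). KDM1A (ENSSSCG00000003531, chromosome 6, 80903358 to 80973632), or LSD1, a flavin-dependent demethylase of the CoREST repressor complex, lay at 120 CPM in fibroblasts, 202 CPM in iNSLCs and 229 and 249 CPM in the iPSC clones. It was 1.99-fold (log2 ratio 1.0 ± 0.13, edgeR adjusted p = 0.00363) higher in iPSCs than in fibroblasts. KDM5A was called higher by less, with log2 ratio 0.56 ± 0.13, edgeR adjusted p = 0.0216.

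KDM1B (ENSSSCG00000001074, chromosome 7, 13845942 to 13901253), the other flavin-dependent H3K4 demethylase, went the opposite way. It lay at 17.6 CPM in fibroblasts, 12.0 CPM in iNSLCs and 4.60 and 4.70 CPM in the iPSC clones, with both clones at the bottom. It was 3.79-fold (log2 ratio -1.92 ± 0.21, edgeR adjusted p = 0.00217) lower in iPSCs than in fibroblasts and 2.59-fold (log2 ratio -1.37 ± 0.22, edgeR adjusted p = 0.0157) lower than in iNSLCs. On CPM per kb, KDM1A exceeded KDM1B by 8.33-fold in fibroblasts, 20.6-fold in iNSLCs and 60.9-fold and 65.0-fold in the clones.

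Among the 4 H3K9 methyltransferases, 2 were called higher in iPSCs than in fibroblasts and 1 lower, while 3 were past 2-fold higher in iNSLCs than in fibroblasts. SUV39H2 (ENSSSCG00000011048, chromosome 10, 46874608 to 46900082), which places H3K9me3 in heterochromatin, lay at 17.4 CPM in fibroblasts, 70.9 CPM in iNSLCs and 66.2 and 76.1 CPM in the iPSC clones. The fibroblast library was far below the other libraries, which could not be ranked: iPSCs were 4.09-fold (log2 ratio 2.03 ± 0.16, edgeR adjusted p = 0.000808) higher than fibroblasts, and against iNSLCs the log2 ratio was 0.01 ± 0.14 (edgeR adjusted p = 0.977). EHMT2 (ENSSSCG00000001420, chromosome 7, 23978008 to 23992666), or G9a, the main H3K9me2 enzyme of euchromatin, had the same shape with 44.8 CPM in fibroblasts, 117 CPM in iNSLCs and 104 and 107 CPM in the iPSC clones. It was 2.36-fold (log2 ratio 1.24 ± 0.12, edgeR adjusted p = 0.00158) higher in iPSCs than in fibroblasts and 2.61-fold (95% interval 2.47 to 2.75) higher in iNSLCs than in fibroblasts.

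SETDB1 (ENSSSCG00000006645, chromosome 4, 98256868 to 98293486), which is recruited through TRIM28 to silence retroelements, was highest in iNSLCs. It lay at 35.7 CPM in fibroblasts, 83.0 CPM in iNSLCs and 42.3 and 39.1 CPM in the iPSC clones, so the iNSLC library was above all others. The iNSLC library was 2.32-fold (95% interval 2.18 to 2.48) above the fibroblast library, iPSCs were 2.04-fold (log2 ratio -1.03 ± 0.13, edgeR adjusted p = 0.00883) lower than iNSLCs, and iPSCs were not called against fibroblasts (edgeR adjusted p = 0.274 with TMM). With total counts the last difference was called higher (adjusted p = 0.00661). Both differences from iNSLCs rest on the same single iNSLC library, and 22.1% of the exon length of SETDB1 is shared with CERS2 on the opposite strand. SETDB2, its relative, lay at 28.6 CPM in fibroblasts, 24.6 CPM in iNSLCs and 12.0 and 12.2 CPM in the iPSC clones and was 2.36-fold (log2 ratio -1.24 ± 0.17, edgeR adjusted p = 0.00385) lower in iPSCs than in fibroblasts and 2.03-fold (log2 ratio -1.02 ± 0.17, edgeR adjusted p = 0.0177) lower than in iNSLCs.

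None of the 6 H3K9 demethylases was called higher in iPSCs than in fibroblasts and 3 were called lower, with a median log2 ratio of -0.45 with TMM that became 0.12 with total counts, where 2 were called higher and 1 lower. KDM4C (ENSSSCG00000005198, chromosome 1, 215071419 to 215507712), which removes H3K9me3 and H3K36me3, was called lower with every scaling and test used. It lay at 33.0 CPM in fibroblasts, 15.8 CPM in iNSLCs and 6.42 and 9.66 CPM in the iPSC clones, so every step of the course was lower than the last and the clones differed by 1.51-fold (95% interval 1.25 to 1.82). It was 4.10-fold (log2 ratio -2.03 ± 0.28, edgeR adjusted p = 0.00421) lower in iPSCs than in fibroblasts and not called against iNSLCs (log2 ratio -0.97 ± 0.29, edgeR adjusted p = 0.0701). The log2 ratio of iNSLCs to fibroblasts for KDM4C was -1.06 with TMM, past 2-fold, and -0.48 with total counts, not past it. KDM4B, of the same family, lay at 93.8 CPM in fibroblasts, 107 CPM in iNSLCs and 50.5 and 55.8 CPM in the iPSC clones, with both clones below both other libraries. It was 2.01-fold (log2 ratio -1.01 ± 0.13, edgeR adjusted p = 0.00931) lower in iPSCs than in iNSLCs, while its call against fibroblasts (edgeR adjusted p = 0.00563) was lost with total counts (adjusted p = 0.170). KDM7A was called lower in both comparisons, at 36.1, 37.1, 24.4 and 24.1 CPM in the order fibroblasts, iNSLCs and clones 1 and 2. Both of its calls were lost with DESeq2, and the one against fibroblasts also with total counts (adjusted p = 0.981). KDM3A, KDM3B and KDM4A were not called in either comparison with TMM, and KDM3A and KDM3B were called higher than fibroblasts with total counts (adjusted p = 0.00346 and 0.00787). KDM4A was the highest of the group per length in fibroblasts and clones 1 and 2 with 26.1, 22.6 and 18.9 CPM per kb, and KDM4B was the highest in iNSLCs with 25.9. Since 76.7% of the exon length of KDM3B is shared with REEP2, its level of 14.2, 23.9, 18.9 and 20.1 CPM is uncertain.

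**Figure D2:**
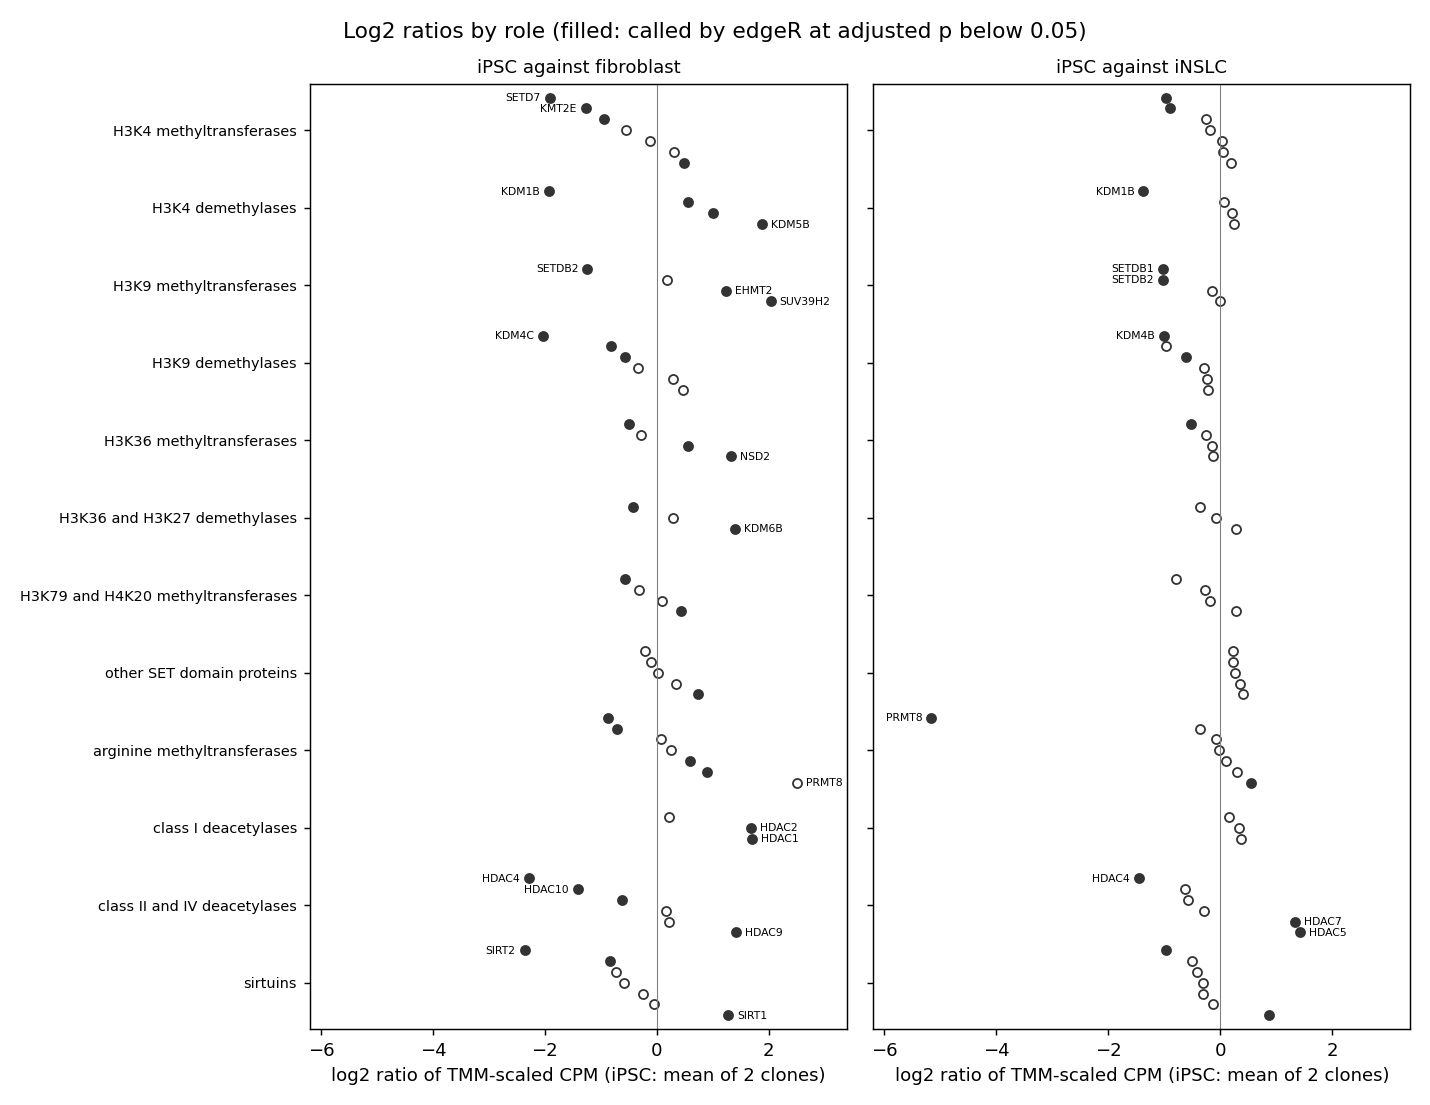
Log2 ratio of TMM-scaled CPM of each enzyme, by role, for iPSCs (mean of 2 clones) against fibroblasts (left) and against iNSLCs (right); filled points were called by edgeR at an adjusted p below 0.05 and named points changed at least 2-fold. The left panel has called genes on both sides of 0 in most roles, whereas on the right most points lie near 0, with PRMT8 far to the left at a log2 ratio of -5.16.

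In the plot of ratios by role, 9 of 12 roles held called genes of both directions with TMM. With total counts this held for 6 of 12 roles. The calls among the H3K36 methyltransferases, the H3K36 and H3K27 demethylases, the H3K79 and H4K20 methyltransferases and the arginine methyltransferases were then all upwards. How often equally small sets of other genes would be mixed was not tested. Upward calls (29.6%) and downward calls (27.5%) were both common in the background with TMM. The mixed roles therefore cannot be read as particular to writers and erasers.

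Among the 4 H3K36 methyltransferases, NSD2 (ENSSSCG00000008682, chromosome 8, 964893 to 1019326), which places H3K36me2, moved most. It lay at 65.8 CPM in fibroblasts, 182 CPM in iNSLCs and 157 and 174 CPM in the iPSC clones, with the fibroblast library below the others. It was 2.51-fold (log2 ratio 1.33 ± 0.14, edgeR adjusted p = 0.00189) higher in iPSCs than in fibroblasts and 2.77-fold (95% interval 2.65 to 2.90) higher in iNSLCs. NSD1, with the same activity, was called higher by less (log2 ratio 0.56 ± 0.12, edgeR adjusted p = 0.0174) at 117, 189, 168 and 178 CPM in the same order of libraries. NSD3, the remaining NSD enzyme, lay at 87.6 CPM in fibroblasts, 89.5 CPM in iNSLCs and 62.7 and 62.1 CPM in the iPSC clones. Its call as lower than fibroblasts (log2 ratio -0.49 ± 0.11, edgeR adjusted p = 0.0199) turned to a log2 ratio of 0.080 with total counts (adjusted p = 0.603), whereas its call as lower than iNSLCs (edgeR adjusted p = 0.0333) was lost only with DESeq2 (adjusted p = 0.0852). SETD2, the H3K36me3 enzyme, was not called, at 157, 155, 128 and 132 CPM.

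KDM6B (ENSSSCG00000017962, chromosome 12, 52796952 to 53108916), which removes H3K27me3, was the member of the H3K36 and H3K27 demethylases that moved most, at 41.7 CPM in fibroblasts, 140 CPM in iNSLCs and 105 and 114 CPM in the iPSC clones. All libraries after transfection lay above the fibroblast library: iPSCs were 2.62-fold (log2 ratio 1.39 ± 0.13, edgeR adjusted p = 0.00144) higher and iNSLCs 3.37-fold (95% interval 3.19 to 3.56) higher. KDM2A, an H3K36 demethylase that binds CpG islands, was the highest of the group per length in fibroblasts (20.2 CPM per kb) and lay at 130, 79.3, 102 and 92.1 CPM in the order fibroblasts, iNSLCs and clones. It was called lower (log2 ratio -0.43 ± 0.13, edgeR adjusted p = 0.0414), but this turned to a log2 ratio of 0.14 with total counts (adjusted p = 0.392). KDM8 was low in every library, at 6.28, 8.10, 7.64 and 7.76 CPM, and was called only with total counts (higher, adjusted p = 0.0382).

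None of the writers at H3K79 and H4K20 differed by 2-fold or more in any comparison with TMM. DOT1L, the only known H3K79 methyltransferase, lay at 41.1 CPM in fibroblasts, 62.9 CPM in iNSLCs and 53.6 and 57.3 CPM in the iPSC clones and was called higher in iPSCs than in fibroblasts (log2 ratio 0.43 ± 0.13, edgeR adjusted p = 0.0404), a call lost with DESeq2 (adjusted p = 0.154). KMT5A, which places the first methyl group on H4K20, lay at 77.0 CPM in fibroblasts, 42.8 CPM in iNSLCs and 53.1 and 50.6 CPM in the iPSC clones and was called lower (edgeR adjusted p = 0.0142), a call lost with total counts (adjusted p = 0.995). KMT5B and KMT5C, which place the further H4K20 methyl groups, were not called against fibroblasts. KMT5B differed between the clones, at 63.8 and 45.1 CPM, and KMT5C was highest in iNSLCs at 18.1 CPM against 9.71 to 11.3 CPM elsewhere (edgeR adjusted p = 0.0579 against iNSLCs).

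Of the 5 other SET domain proteins, SETD5 (ENSSSCG00000011540, chromosome 13, 65759965 to 65854432), a chromatin regulator that associates with HDAC3 and the PAF1 complex, was called higher in iPSCs than in fibroblasts. It lay at 229 CPM in fibroblasts, 325 CPM in iNSLCs and 371 and 389 CPM in the iPSC clones, and the increase was 1.66-fold (log2 ratio 0.73 ± 0.12, edgeR adjusted p = 0.00730). SETD3, which methylates actin, was called higher only with total counts (adjusted p = 0.00319), and SETD4, SETD6 and SETD9 stayed between 4.36 and 6.93 CPM in every library. SETD4, the lowest per length, was at 5.85, 4.61, 5.53 and 5.31 CPM in fibroblasts, iNSLCs and clones 1 and 2. SETD6 shares 41.2% of its exon length with NDRG4.

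The arginine methyltransferases had 2 genes called higher in iPSCs than in fibroblasts, 2 called lower and 3 not called. PRMT1 (ENSSSCG00000003189, chromosome 6, 54718843 to 54732570), the main source of asymmetric dimethylarginine in most cells, was the highest of the 60 enzymes per length in fibroblasts and the next after HDAC2 in the other libraries. It lay at 269 CPM in fibroblasts, 342 CPM in iNSLCs and 514 and 483 CPM in the iPSC clones, with the clones above both other libraries. It was 1.85-fold (log2 ratio 0.89 ± 0.12, edgeR adjusted p = 0.00424) higher in iPSCs than in fibroblasts and 1.46-fold (log2 ratio 0.54 ± 0.12, edgeR adjusted p = 0.0359) higher than in iNSLCs. PRMT5, the main source of symmetric dimethylarginine, lay at 86.4, 106, 133 and 129 CPM in the same order and was called higher in iPSCs than in fibroblasts (log2 ratio 0.60 ± 0.12, edgeR adjusted p = 0.0129). PRMT3 and PRMT7 were called lower than in fibroblasts with TMM (edgeR adjusted p = 0.0124 and edgeR adjusted p = 0.00340), and both calls were lost with total counts (adjusted p = 0.451 and 0.0848). PRMT6 and PRMT9 were not called with TMM, at 8.92 to 9.95 CPM and 17.9 to 23.4 CPM. PRMT9 was called higher with total counts (adjusted p = 0.0244), and 45.5% of the exon length of PRMT9 is shared with TMEM184C.

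PRMT8 (ENSSSCG00000000730, chromosome 5, 66665263 to 66753868), a membrane-anchored arginine methyltransferase known from brain, had by far the widest range of the 60 enzymes. It had 4 counts in fibroblasts, 502 in iNSLCs and 16 and 14 in iPSC clones 1 and 2, which is 0.0864, 17.5, 0.676 and 0.306 CPM. The iNSLC library stood alone: it was 203-fold (95% interval 78.7 to 747) above the fibroblast library, and iPSCs were 35.7-fold (log2 ratio -5.23 ± 0.50, edgeR adjusted p = 0.00514) lower than iNSLCs. Against fibroblasts the log2 ratio of iPSCs was 2.38 ± 0.76 (edgeR adjusted p = 0.0506), and this difference of a few counts was called with total counts, without the low-count filter and with DESeq2 (adjusted p = 0.0196, 0.0378 and 0.0425). Of the 5 neural stem markers tested, DCX, found in newborn neurons, and NEUROG2, a proneural factor, were likewise high in the iNSLC library alone. DCX was at 54.6 CPM there against 5.38, 1.44 and 1.68 CPM in fibroblasts and clones 1 and 2, and NEUROG2 at 5.72 CPM against 0.238, 0.0422 and 0.0437 CPM. The other markers differed from this: MSI1 was at 151 CPM in iNSLCs and 85.2 and 97.1 CPM in the clones, NES was higher in the clones (461 and 505 CPM) than in iNSLCs (384 CPM), and PAX6 was as given above. The part of neural cells in the PRMT8 value was not tested.

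**Figure D3:**
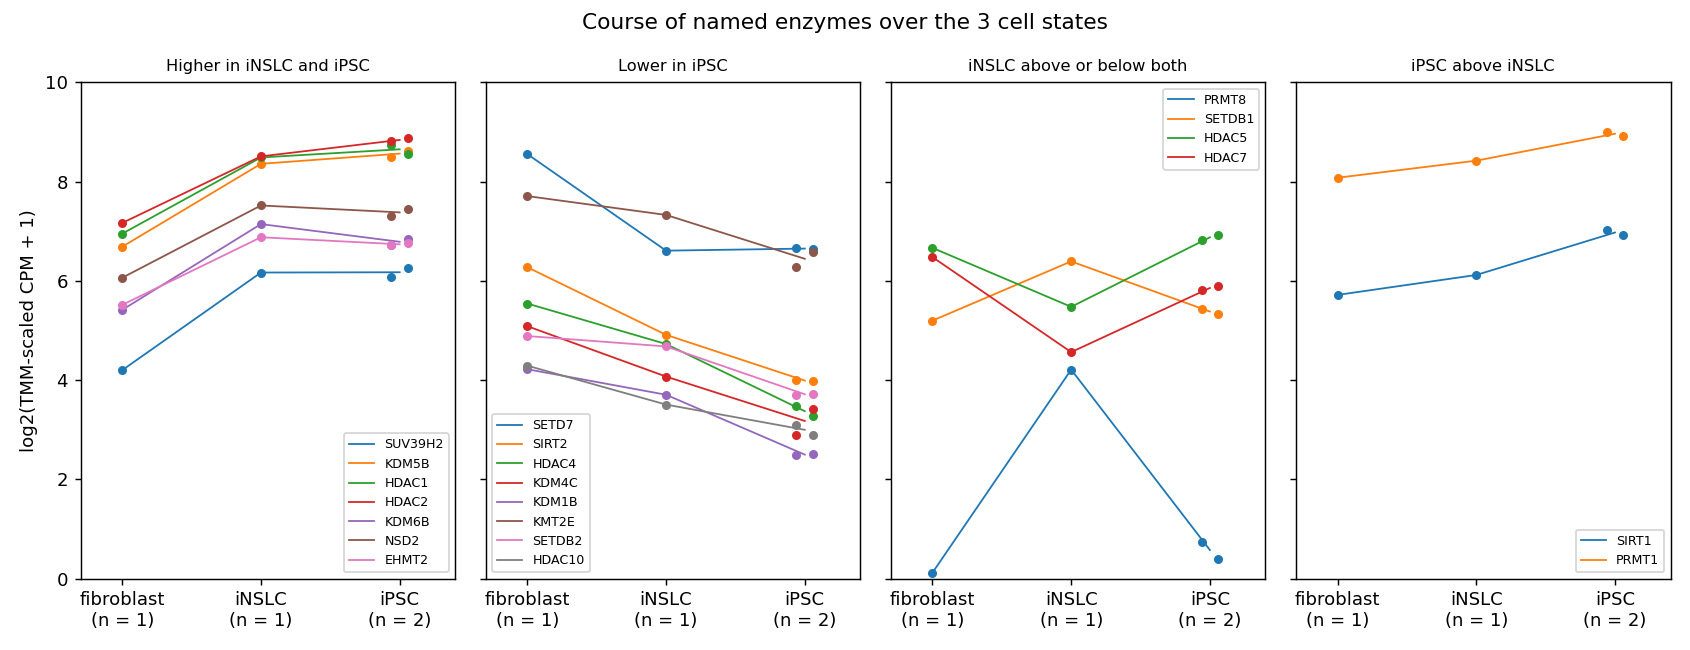
Named enzymes over the fibroblast library, the iNSLC library and both iPSC clones, as log2(TMM-scaled CPM + 1); lines join the single libraries and the mean of the clones. From left to right the panels hold genes higher in iNSLCs and iPSCs, genes lower in iPSCs, genes whose iNSLC value lies above or below both ends, and genes higher in iPSCs than in iNSLCs; HDAC7 dips to 22.6 CPM and SETDB1 peaks at 83.0 CPM in iNSLCs.

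In the plot of the course, SUV39H2, KDM5B and EHMT2 were past 2-fold above fibroblasts in iNSLCs, and iPSCs were not called against iNSLCs. A missing call against 1 iNSLC library does not show equal levels. Other genes, such as HDAC4, SIRT2 and KDM1B, were called lower in iPSCs than in iNSLCs as well as in fibroblasts. For these the log2 ratios of iNSLCs to fibroblasts were -0.84, -1.39 and -0.55, of which only that of SIRT2 was past 2-fold, and with total counts they were -0.26, -0.81 and 0.034, so that none was past 2-fold and KDM1B turned. The same library also held the most extreme value of SETDB1, PRMT8, HDAC5 and HDAC7.

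Of the 3 class I deacetylases, 2 were called higher in iPSCs than in fibroblasts and none lower. HDAC1 (ENSSSCG00000003613, chromosome 6, 88749193 to 88786905) and HDAC2 are the catalytic subunits of the SIN3, NuRD and CoREST complexes. HDAC1 lay at 123 CPM in fibroblasts, 358 CPM in iNSLCs and 425 and 377 CPM in the iPSC clones, with the fibroblast library far below the rest. It was 3.27-fold (log2 ratio 1.71 ± 0.15, edgeR adjusted p = 0.00105) higher in iPSCs than in fibroblasts. HDAC2 (ENSSSCG00000004432, chromosome 1, 79866670 to 79901587) moved with it, at 143 CPM in fibroblasts, 363 CPM in iNSLCs and 448 and 467 CPM in the iPSC clones, and was 3.20-fold (log2 ratio 1.68 ± 0.13, edgeR adjusted p = 0.000751) higher. Neither was called against iNSLCs (edgeR adjusted p = 0.404 and edgeR adjusted p = 0.103), and the iNSLC library was 2.91-fold (95% interval 2.82 to 3.01) above fibroblasts for HDAC1 and 2.55-fold (95% interval 2.47 to 2.63) for HDAC2. HDAC2 exceeded HDAC1 per length in every library, and the ratio of HDAC1 to HDAC2 on CPM per kb stayed between 0.502 and 0.612. HDAC3, the deacetylase of the NCoR and SMRT complexes, was called higher than fibroblasts only with total counts (adjusted p = 0.00736), at 67.6, 60.7, 73.9 and 82.6 CPM in the order fibroblasts, iNSLCs and clones. The summed level of the class was 97.0, 212, 258 and 258 CPM per kb in that order. The summed level of the proliferation genes was likewise lowest in fibroblasts, at 900 CPM against 2309 CPM in iNSLCs and 2858 and 3163 CPM in the clones, and its part in the HDAC1 and HDAC2 values was not tested.

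The 6 class II and IV deacetylases had no common direction, with 1 called higher in iPSCs than in fibroblasts, 3 called lower and 2 not called. HDAC4 (ENSSSCG00000024777, chromosome 15, 138381635 to 138657270), a class IIa enzyme that shuttles between nucleus and cytoplasm and binds MEF2 factors, lay at 45.6 CPM in fibroblasts, 25.5 CPM in iNSLCs and 10.1 and 8.63 CPM in the iPSC clones. The clones were lowest: iPSCs were 4.87-fold (log2 ratio -2.29 ± 0.18, edgeR adjusted p = 0.000807) lower than fibroblasts and 2.72-fold (log2 ratio -1.45 ± 0.18, edgeR adjusted p = 0.00933) lower than iNSLCs. HDAC10, a polyamine deacetylase, was also called lower than in fibroblasts, by 2.66-fold (log2 ratio -1.41 ± 0.22, edgeR adjusted p = 0.00621), at 18.6, 10.4, 7.56 and 6.43 CPM in the usual order. HDAC9, a further class IIa enzyme, was low throughout, at 2.16, 8.97, 4.31 and 7.23 CPM, and the clones differed by 1.68-fold (95% interval 1.34 to 2.12). Its call as higher in iPSCs (edgeR adjusted p = 0.0457) was lost with DESeq2 (adjusted p = 0.0639), with a filter at 5 CPM (adjusted p = 0.0532) and with the libraries of these groups alone (adjusted p = 0.0509).

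HDAC5 (ENSSSCG00000017366, chromosome 12, 19077422 to 19123140) and HDAC7 (ENSSSCG00000027859, chromosome 5, 78151672 to 78166924), the remaining class IIa enzymes, were lowest in iNSLCs. HDAC5 lay at 100 CPM in fibroblasts, 43.5 CPM in iNSLCs and 112 and 121 CPM in the iPSC clones, with the iNSLC library below the others. It was 2.68-fold (log2 ratio 1.42 ± 0.13, edgeR adjusted p = 0.00493) higher in iPSCs than in iNSLCs and was called higher than fibroblasts only with total counts (adjusted p = 0.00568, against 0.196 with TMM). HDAC7 lay at 88.1 CPM in fibroblasts, 22.6 CPM in iNSLCs and 55.1 and 58.7 CPM in the iPSC clones and was 2.51-fold (log2 ratio 1.33 ± 0.13, edgeR adjusted p = 0.00554) higher in iPSCs than in iNSLCs. The iNSLC library was 2.31-fold (95% interval 2.17 to 2.46) below fibroblasts for HDAC5 and 3.89-fold (95% interval 3.58 to 4.23) below for HDAC7. With total counts these log2 ratios were -0.62 and -1.38, so only HDAC7 stayed past 2-fold. The call of HDAC7 as lower in iPSCs than in fibroblasts (edgeR adjusted p = 0.0111) was lost with total counts (adjusted p = 0.713). All these differences from iNSLCs rest on 1 iNSLC library. HDAC11, the class IV enzyme, was not called, between 5.23 and 7.08 CPM.

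**Figure D4:**
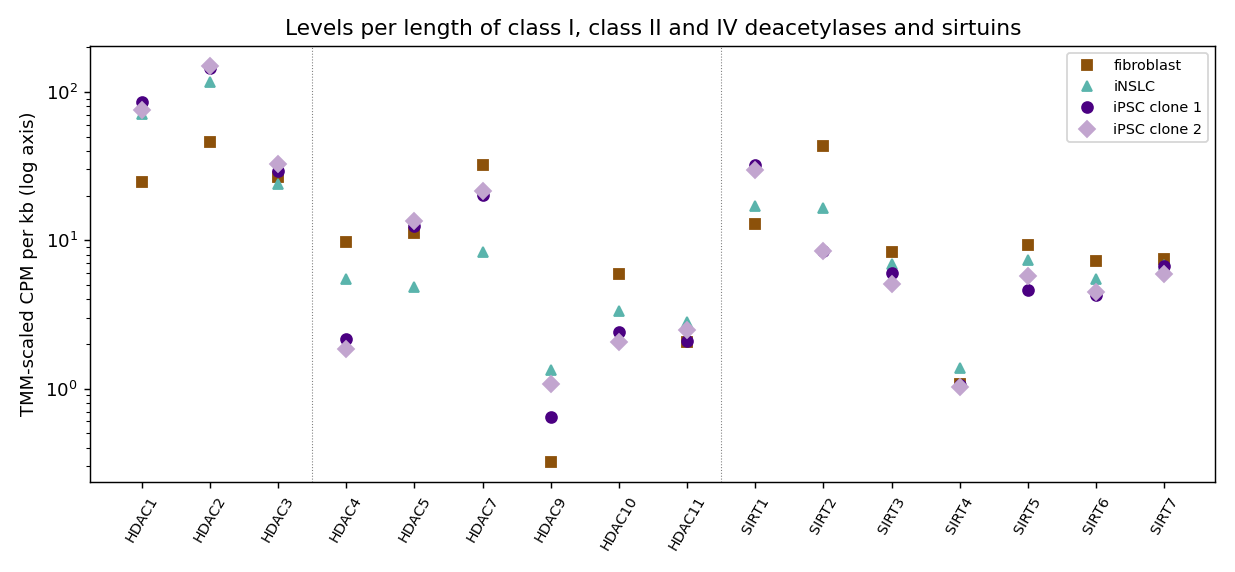
Level per length (TMM-scaled CPM per kb of gene model, log axis) of the class I deacetylases, the class II and IV deacetylases and the sirtuins; each point is 1 library. HDAC2 is the highest in every library (45.9 to 150 CPM per kb), HDAC9 is the lowest in all libraries but clone 2, where SIRT4 is, and SIRT1 and SIRT2 change places between fibroblasts and iPSCs.

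Because the plot of deacetylase levels is per length, genes can be ranked within a library. The 3 class I enzymes lay above HDAC4, HDAC9, HDAC10 and HDAC11 in every library, whereas HDAC7 in fibroblasts, at 32.3 CPM per kb, exceeded HDAC1 and HDAC3, at 24.5 and 26.6 CPM per kb.

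The sirtuins split into a gene that rose, genes that fell and genes not called. SIRT1 (ENSSSCG00000010235, chromosome 14, 71091167 to 71122936), a nuclear deacetylase of histones, p53 and other factors, lay at 51.6 CPM in fibroblasts, 68.5 CPM in iNSLCs and 129 and 120 CPM in the iPSC clones. Both clones stood above both other libraries: iPSCs were 2.42-fold (log2 ratio 1.27 ± 0.13, edgeR adjusted p = 0.00171) higher than fibroblasts and 1.82-fold (log2 ratio 0.86 ± 0.13, edgeR adjusted p = 0.0136) higher than iNSLCs. SIRT2 (ENSSSCG00000026794, chromosome 6, 47682429 to 47703342), a mainly cytoplasmic enzyme that deacetylates tubulin and also H4K16, went the opposite way, at 76.4 CPM in fibroblasts, 29.1 CPM in iNSLCs and 14.9 and 14.8 CPM in the iPSC clones. It was 5.13-fold (log2 ratio -2.36 ± 0.13, edgeR adjusted p = 0.000383) lower in iPSCs than in fibroblasts, the lowest ratio among the 60 enzymes, and 1.95-fold (log2 ratio -0.97 ± 0.13, edgeR adjusted p = 0.0120) lower than in iNSLCs. The ratio of SIRT1 to SIRT2 on CPM per kb was 0.296 in fibroblasts, 1.03 in iNSLCs and 3.79 and 3.54 in the clones, so the more abundant gene changed. SIRT5, a mitochondrial desuccinylase, was called lower than in fibroblasts (edgeR adjusted p = 0.0406), a call lost with total counts (adjusted p = 0.419) and with DESeq2 (adjusted p = 0.139). The mitochondrial SIRT3 and SIRT4 and the nuclear SIRT6 and SIRT7 were not called with TMM in the fit of all libraries, and lay between 2.25 and 17.9 CPM. SIRT4, the lowest of these, was at 2.38, 3.04, 2.32 and 2.25 CPM in the usual order. SIRT6 shares 28.1% of its exon length with CREB3L3.

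Between the clones, none of the enzymes was at least 2-fold apart with 5 CPM or more in the higher clone, against 0.318% of all genes higher and 1.11% lower in clone 2 (1.42% together), and 57 of 60 were within 1.5-fold. The exceptions were KDM4C and HDAC9, given above, and PRMT8, whose clones had too few counts to compare closely (2.21-fold (95% interval 1.01 to 4.88)). Summed over all enzymes, the genes took 0.315% of all counts in fibroblasts, 0.564% in iNSLCs and 0.571% and 0.580% in the clones. The same sum on TMM-scaled CPM per kb was 774, 922, 983 and 987. In raw counts, COL1A1 took 2989025 of the 62421521 counts of the fibroblast library and 618257 of the 25784594 counts of the iNSLC library. The part of collagen transcripts in the share of the enzymes was not tested.

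Partner proteins of these enzymes were read from lists chosen by function. For all lists, the shares over all genes tested were 29.6% called higher in iPSCs than in fibroblasts and 27.5% lower, with a median log2 ratio of 0.13. With total counts these were 44.9%, 16.8% and 0.70. Of 11 COMPASS and MLL complex partners tested, which build the H3K4 methyltransferase complexes, 7 were called higher in iPSCs than in fibroblasts and 1 lower, with a median log2 ratio of 0.64. With total counts 9 of these partners were called higher and 0 lower, with a median of 1.21. PSIP1, or LEDGF, which tethers MLL1 with menin to chromatin, rose 7.24-fold (edgeR adjusted p = 0.000596), from 49.7 CPM in fibroblasts to 333 CPM in iNSLCs and 322 and 397 CPM in the clones. ASH2L, a core subunit, rose 2.52-fold (edgeR adjusted p = 0.00132), whereas NCOA6, a subunit of the KMT2C and KMT2D complexes, fell by 0.85 on the log2 scale (edgeR adjusted p = 0.00460). The call of NCOA6 as lower was lost with total counts. Of 8 partners and readers of H3K9 methylation, 6 were called higher and 1 lower, with a median of 0.78. With total counts 7 of them were called higher and 0 lower, with a median of 1.35. CBX1, an HP1 protein that binds H3K9me3, rose 4.24-fold (edgeR adjusted p = 0.00117). ATF7IP, the partner of SETDB1, was highest in the same library as SETDB1, at 80.9 CPM in fibroblasts, 266 CPM in iNSLCs and 138 and 142 CPM in the clones. This was not particular to ATF7IP: CBX5, of the same list, was also highest there, at 297, 1000, 752 and 864 CPM in the same order. TRIM28 was not highest there, at 262 CPM in fibroblasts, 423 CPM in iNSLCs and 488 and 499 CPM in the clones. It was not called in iPSCs against iNSLCs (edgeR adjusted p = 0.212).

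Of 31 HDAC complex partners listed, 28 were tested, and the rest, among them relatives of genes named here, had 0 counts in every library. Of those tested, 9 were called higher in iPSCs than in fibroblasts, 9 lower and 10 not called, with a median of -0.024 that became 0.55 with total counts. RCOR2, a CoREST subunit that binds KDM1A, lay at 5.77 CPM in fibroblasts, 61.1 CPM in iNSLCs and 43.7 and 63.7 CPM in the clones, and rose 9.32-fold (edgeR adjusted p = 0.00136). Its relative RCOR3 fell by 1.41 on the log2 scale (edgeR adjusted p = 0.00229). In NuRD, MTA3 rose 5.13-fold (edgeR adjusted p = 0.000387) and the methyl-CpG protein MBD2 fell by 2.32 on the log2 scale (edgeR adjusted p = 0.0128), although its clones lay apart, at 39.7 and 17.2 CPM against 142 CPM in fibroblasts.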

How the data were processed

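The authors deposited whole-number read counts per gene, not normalized. Per the submitters' processing notes, Trim Galore 0.4.0, STAR 2.5.3a and featureCounts 1.5.2 were used with Sscrofa11.1. The strand setting was not given in the sources used here. The exon length shared with overlapping genes is stated where it exceeds 20% of a gene given with values. Groups, clones and passages came from the labels.

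Symbols were assigned by Ensembl identifier to 14857 of 25880 genes and by position (80% reciprocal overlap on Sscrofa11.1) to 1267, among them 1 enzyme, SETD1B. The 1 gene of these families left out is not reported here. The members and lists were chosen with earlier results of these data known.

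Counts were filtered with filterByExpr and scaled by TMM (factors 0.742, 1.11, 1.09 and 1.11 for fibroblasts, iNSLCs and clones 1 and 2). The edgeR quasi-likelihood F test (edgeR 4.0.16, limma 3.58.1, R 4.3.3) ran over all 4 libraries in 3 groups, two-sided, with Benjamini-Hochberg adjustment over 15739 genes (common biological coefficient of variation 0.198), and was tested on simulated data. Folds, medians and plotted log2 ratios compare mean TMM-scaled CPM; a log2 ratio given with ± is that of the fit, with a standard error taken from it and its F statistic. Libraries under 3 counts were raised to 3 counts for folds. Intervals cover counting error only. CPM per kb uses the length given in the files.

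Named with values in every library are enzymes called at 2-fold or more, or past 2-fold and 5 CPM in iNSLCs against fibroblasts, and the highest and lowest per length of each role; further enzymes and the pairs set in ratio were chosen after their values were seen. Per list of partners, other methylation enzymes, acetyltransferases, proliferation genes or markers, at most 4 genes are named, except that all 5 neural stem markers are, a choice made after their values were seen. The alternatives tried were scaling by RLE or total counts, other filters, DESeq2 1.42.0, the compared groups alone, leaving out a clone, and other fold limits.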

Additional observations from a re-analysis of the deposited data

How the results depend on the processing

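For iPSCs against fibroblasts, 14 of the 17 enzymes called higher and 9 of the 18 called lower kept their call under all 6 alternatives (RLE and total-count scaling, no low-count filter, a filter at 5 CPM, DESeq2, and only the libraries of the groups compared). For iPSCs against iNSLCs this held for 4 of 4 called higher and 9 of 11 called lower. Total-count scaling had the widest effect, giving 28 enzymes higher and 9 lower against fibroblasts, with 7063 and 2645 of all genes; KDM2A, NSD3 and SETD1B turned to log2 ratios of 0.14 (adjusted p = 0.392), 0.080 (adjusted p = 0.603) and 0.45 (adjusted p = 0.0401). Under the other alternatives 15 to 18 were called higher and 14 to 19 lower, and over all genes 3674 to 4699 and 3672 to 4612. The median log2 ratio of the enzymes against fibroblasts, 0.046, was 0.034 with RLE, 0.62 with total counts, and -0.000203 to 0.0162 when either clone was left out, without clone 2 being the negative value. Against iNSLCs the median of -0.16 became -0.15 with RLE, -0.18 with total counts and -0.148 to -0.144 without a clone. For iNSLCs against fibroblasts, 20 enzymes were past 2-fold higher and 2 lower with total counts (23.1% and 8.74% of all genes), 2 and 0 at 4-fold and 10 CPM (5.89% and 5.69%), and 16 and 10 at 1.5-fold (19.4% and 23.9%). Between the clones, 2 were past 1.5-fold with 5 CPM. Leaving out a clone leaves no residual degree of freedom, so ratios but no test were obtained.

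No paired analysis was possible because fibroblasts and iNSLCs have 1 library each and share fewer than 2 replicate numbers with the iPSCs. Depth limited PRMT8 in fibroblasts and iPSCs, at 4 to 16 counts. Levels under 3 counts (0.0648 to 0.127 CPM) could not be told from 0. Outlying samples were not tested for, since no group has 4 libraries.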

Other observations

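Neighbouring enzymes of histone methylation and acetylation outside the gene names used above also divided. Of 18 further histone methylation enzymes tested, 4 were called higher in iPSCs than in fibroblasts and 6 lower (median log2 ratio -0.15 with TMM and 0.42 with total counts). EZH2, the H3K27 methyltransferase of Polycomb, lay at 19.4 CPM in fibroblasts, 132 CPM in iNSLCs and 88.4 and 93.9 CPM in the clones, and rose 4.71-fold (edgeR adjusted p = 0.000448). ASH1L, an H3K36 methyltransferase, went from 175 CPM in fibroblasts to 64.7 CPM in iNSLCs and 43.8 and 38.0 CPM in the clones (4.27-fold lower, edgeR adjusted p = 0.000523). Of 13 acetyltransferases, which add what the deacetylases remove, 1 was called higher and 2 lower, and 10 were not called (median log2 ratio -0.0053 with TMM and 0.57 with total counts). HAT1, which acetylates newly made histone H4, rose 2.04-fold (edgeR adjusted p = 0.00291), and KAT2B, or PCAF, fell by 1.52 on the log2 scale (edgeR adjusted p = 0.00415). KAT7 was highest in iNSLCs, at 132 CPM against 57.1 CPM in fibroblasts and 74.3 and 68.3 CPM in the clones. Of the marker lists for other cells, the 3 epithelial genes summed to 8.77, 1475, 7538 and 7035 CPM in fibroblasts, iNSLCs and clones 1 and 2. The blood and immune genes summed to 15.9, 4.50, 2.32 and 3.32 CPM and the endothelial genes to 19.5, 22.5, 6.0 and 14.4 CPM, and CD3E was at 0 counts in all libraries but clone 2.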
